A study of Caenorhabditis elegans with 21 samples.

Results

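The hsp-16 genes encode small heat shock proteins of Caenorhabditis elegans and sit in clusters on chromosome V. The 6 genes described here were chosen by name: hsp-16.1 (WBGene00002015), hsp-16.2 (WBGene00002016), hsp-16.11 (WBGene00002017), hsp-16.41 (WBGene00002018), hsp-16.48 (WBGene00002019) and hsp-16.49 (WBGene00002020). They are 6 of 46254 gene IDs in the deposited table, and all 6 were among the 17492 genes tested, which reached 1 FPKM or more in 3 or more libraries. FPKM is the number of sequenced fragments per kilobase of transcript, scaled to the mapped fragments of the library. Whole worms of the wild-type strain N2 gave 21 RNA-seq libraries, 3 in each of 7 groups. The worms were kept at 20 °C with the bacterial strain OP50 as food and harvested as day 1 adults. The rpn-6 RNAi group was moved onto RNAi plates at the L3 stage. The 25 µM and 10 µM bortezomib groups and the groups on 200 µM fluphenazine or 200 µM cantharidin were moved onto drug plates at L4 and collected the next day. The starved group spent the last 15 h on plates without food, and the controls were untreated. The labels name no empty-vector RNAi group and no vehicle group, so each treatment was compared with untreated worms, and food source, plate and solvent cannot be told apart from the treatment. It is not stated whether replicates came from separate cultures, and p-values then measure the spread between these libraries, which may be technical.

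Small heat shock proteins carry an alpha-crystallin domain and hold unfolding proteins in a soluble state without using ATP, until HSP70 chaperones can refold them. The hsp-16 genes are induced by heat and other stresses that unfold proteins, through the heat shock transcription factor HSF-1. Bortezomib inhibits the catalytic core of the proteasome, and rpn-6 encodes a subunit of the lid of its regulatory particle. Fluphenazine is a phenothiazine antipsychotic, and cantharidin inhibits serine/threonine protein phosphatases.

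In the reference annotation the 6 genes form 3 divergent pairs, each made of neighbours that face away from a shared upstream region: hsp-16.2 with hsp-16.41, hsp-16.1 with hsp-16.48, and hsp-16.11 with hsp-16.49. Each gene has 2 exons, and none overlaps another annotated gene. The pair of hsp-16.1 and hsp-16.48 and the pair of hsp-16.11 and hsp-16.49 are copies of one duplicated unit, and annotation release 115 gives each copy the name of its partner (hsp-16.1 for WBGene00002017 and hsp-16.48 for WBGene00002020). In these data hsp-16.48 and hsp-16.49 were listed at the same FPKM in 11 libraries and differed by at most 1.30% in the other 10. Fragments from near-identical copies can be split between them by the upstream software, so the separate levels of hsp-16.48 and hsp-16.49, and of hsp-16.1 and hsp-16.11, are uncertain, and their sums are also given.

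The libraries differed in ways beyond the hsp-16 genes. Relative depth, estimated from the steps between low values, varied 1.60-fold over the 21 libraries, and the summed FPKM ran from 938941 to 1036350. The libraries named here, by group and replicate number, control 7, fluphenazine 4 and starvation 3 stood apart from their groups in marker genes of other tissues. For example, the 10 oocyte and eggshell markers summed to 5749 FPKM in fluphenazine 4, against 1836 and 1140 FPKM in the other fluphenazine libraries. The 9 sperm markers summed to 2602 FPKM in control 7, against 870.1 and 957 FPKM in the other controls, and to 197 FPKM in starvation 3, against 3121 and 3553 FPKM in the other starved libraries. The targeted gene, named rpn-6.1 in the annotation, had 114.8, 122 and 127 FPKM in rpn-6 RNAi worms, against 168, 168 and 130.2 FPKM in controls. That is a log2 difference of -0.35 ± 0.14 (SE, limma adjusted p = 0.0553), with no overlap between the groups but no call. The same gene was called lower in fluphenazine (-0.36, adjusted p = 0.0397), cantharidin (-0.36, adjusted p = 0.0457) and starvation (-0.38, adjusted p = 0.0255), and higher in 25 µM (0.49, adjusted p = 0.0066) and 10 µM bortezomib (0.49, adjusted p = 0.025). The rpn-6.1 mRNA level of the RNAi worms thus overlapped that of fluphenazine, cantharidin and starved worms. The 6 intestine markers summed to 708 to 1246 FPKM after rpn-6 RNAi, against 4893 to 5453 FPKM in controls. Their sum was 784 to 1119.9 FPKM in 25 µM bortezomib and 2776 to 3180 FPKM in 10 µM bortezomib. Such a sum is weighted to its most abundant members. Against controls 1 marker was called higher and 2 lower after rpn-6 RNAi, and 2 higher and 2 lower in 25 µM bortezomib. In 10 µM bortezomib 1 was called higher and 0 lower. Of all genes, 27.9%, 42.3% and 9.61% were called higher and 8.81%, 11.1% and 3.24% lower in these comparisons. The part of these markers in the hsp-16 results was not tested. No marker of any tissue list was at 0 in all 3 libraries of a group.

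Summed over the 6 genes, hsp-16 transcripts reached 4387 ± 446 FPKM in rpn-6 RNAi worms, 1885 ± 45.5 FPKM in 25 µM bortezomib and 2691 ± 159 FPKM in 10 µM bortezomib. The sum was 161 ± 40.6 FPKM in fluphenazine, 141 ± 29.9 FPKM in cantharidin and 38.3 ± 15.5 FPKM in starvation, against 102 ± 13.7 FPKM in controls (mean ± SD, n = 3 each). These means are 43.2, 18.6, 26.5, 1.59, 1.39 and 0.377 times the control mean. As a share of all FPKM in a library, the 6 genes made up 0.421% to 0.512% after rpn-6 RNAi, against 0.00900% to 0.0111% in controls. By mean FPKM, hsp-16.11 was the highest of the 6 in rpn-6 RNAi worms, at rank 134 of the 17492 genes, against rank 5663 in controls. The lowest of the 6, hsp-16.2, stood at rank 356 after rpn-6 RNAi, against rank 11331 in controls. Because RNA was taken from whole worms, more RNA per cell and more cells expressing a gene cannot be told apart.

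**Figure D1:**
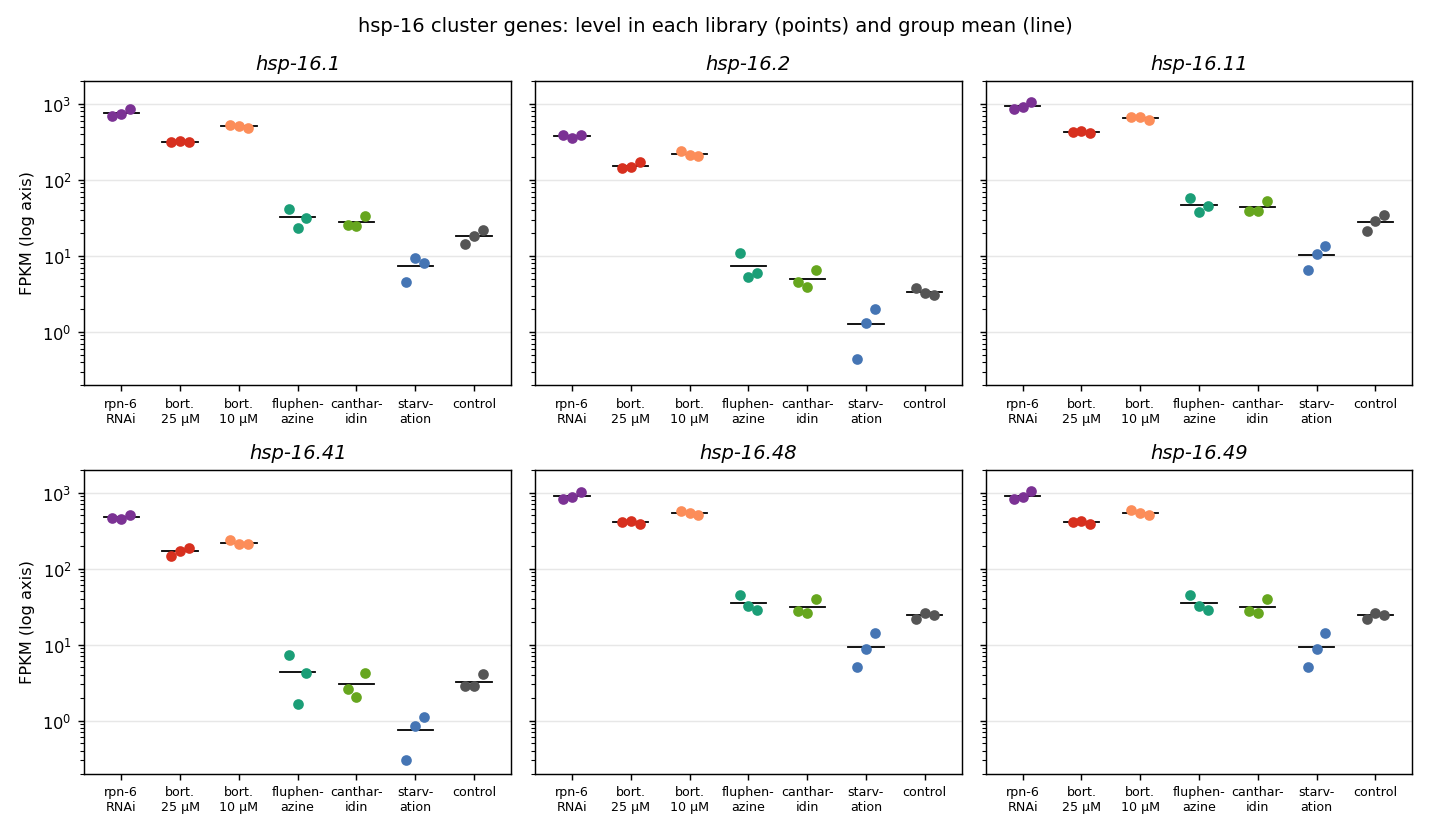
FPKM of each hsp-16 gene (log axis) in the 21 libraries, 1 panel per gene, with points for libraries and a line for the group mean (n = 3). In every panel the rpn-6 RNAi libraries sit highest, the 10 µM bortezomib libraries above the 25 µM ones, and the starved libraries lowest.

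The order of the groups was nearly the same for each gene. From high to low it was rpn-6 RNAi, 10 µM bortezomib, 25 µM bortezomib, fluphenazine, cantharidin, control and starvation for 5 genes, while for hsp-16.41 the controls stood above cantharidin. The ranges of neighbouring groups in this order overlapped between fluphenazine and cantharidin for those 5 genes, and for hsp-16.41 between fluphenazine and control and between cantharidin and control. All other neighbours had ranges that did not overlap. The share of all tested genes whose ranges did not overlap was not counted, here or for the comparisons below. All 21 pairs of groups were contrasted in 1 limma fit on log2(FPKM + 1) over all 21 libraries, with p-values adjusted over the 17492 genes within each pair. A gene is called, and written as higher or lower, at an adjusted p under 0.05. Comparisons that share a group also share its libraries, so the values against control are not independent of each other.

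After rpn-6 RNAi all 6 hsp-16 genes rose against controls. Of all genes tested, 27.9% were called higher and 8.81% lower in that comparison. The gene hsp-16.41 had 465, 449 and 507 FPKM in rpn-6 RNAi worms, against 2.83, 2.82 and 4.14 FPKM in controls. Its partner hsp-16.2 had 387, 359 and 394 FPKM in rpn-6 RNAi worms, against 3.82, 3.27 and 3.05 FPKM in controls. All RNAi libraries lay far above all controls in both genes, and the ratio of means was 145 for hsp-16.41 and 112 for hsp-16.2. On the log2(FPKM + 1) scale, which understates changes of low genes, the differences were 6.81 ± 0.31 for hsp-16.41 (SE, limma adjusted p = 3.75e-11) and 6.45 ± 0.25 for hsp-16.2 (adjusted p = 4.53e-12). The other members started from a higher level. The gene hsp-16.1 had 701, 729 and 865 FPKM in rpn-6 RNAi worms, against 14.6, 18.4 and 22 FPKM in controls, a log2 difference of 5.32 ± 0.22 (adjusted p = 1.2e-11). Its copy hsp-16.11 had 863, 922 and 1061 FPKM in rpn-6 RNAi worms, against 21.4, 28.5 and 34.7 FPKM in controls, a difference of 5.04 ± 0.21 (adjusted p = 1.45e-11). In both, rpn-6 RNAi 6 was the highest and no library of one group reached the other. The gene hsp-16.48 had 819, 870.0 and 1029 FPKM in rpn-6 RNAi worms, against 22, 26.1 and 24.7 FPKM in controls, a difference of 5.16 ± 0.24 (adjusted p = 6.52e-11). Its copy hsp-16.49 had 829.7, 869 and 1039 FPKM after RNAi and the same FPKM as hsp-16.48 in controls, a difference of 5.17 ± 0.25 (adjusted p = 6.59e-11). The sum of hsp-16.48 and hsp-16.49 averaged 1819 ± 220.4 FPKM after RNAi, against 48.5 ± 4.13 FPKM in controls, and that of hsp-16.1 and hsp-16.11 averaged 1714 ± 189 FPKM, against 46.5 ± 10.4 FPKM (SD, n = 3 each). The median log2 difference of all tested genes was 0.31 in this comparison, and each hsp-16 gene exceeded it by at least 4.74.

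In 25 µM bortezomib all 6 genes rose against controls as well. Here 42.3% of tested genes were called higher and 11.1% lower. The gene hsp-16.41 had 149, 172 and 189 FPKM in 25 µM bortezomib, against the 2.83, 2.82 and 4.14 FPKM of controls, a log2 difference of 5.34 ± 0.31 (limma adjusted p = 1e-09). The gene hsp-16.2 had 141.7, 148 and 173 FPKM in 25 µM bortezomib, against 3.82, 3.27 and 3.05 FPKM in controls, a difference of 5.14 ± 0.25 (adjusted p = 1.14e-10). As after RNAi, these 2 genes had larger differences than the other 4. The gene hsp-16.1 had 319, 320.3 and 316 FPKM in 25 µM bortezomib, against 14.6, 18.4 and 22 FPKM in controls, and hsp-16.11 had 422, 444 and 415 FPKM, against 21.4, 28.5 and 34.7 FPKM. Their differences were 4.07 ± 0.22 (adjusted p = 4.87e-10) and 3.90 ± 0.21 (adjusted p = 4.9e-10). The gene hsp-16.48 had 409, 425 and 385 FPKM and hsp-16.49 had 413, 428 and 387 FPKM in 25 µM bortezomib, with differences from controls of 4.01 ± 0.24 and 4.03 ± 0.25 (adjusted p = 1.8e-09 and 1.81e-09). No library of the dose overlapped the controls for any member.

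In 10 µM bortezomib all 6 genes rose again, in the comparison with the fewest calls of the 6 against controls, where 9.61% of tested genes were called higher and 3.24% lower. The gene hsp-16.41 had 238, 211 and 209 FPKM in 10 µM bortezomib, against 2.83, 2.82 and 4.14 FPKM in controls, a log2 difference of 5.70 ± 0.31 (limma adjusted p = 6.22e-09). The gene hsp-16.2 had 239, 211 and 207 FPKM in 10 µM bortezomib, against 3.82, 3.27 and 3.05 FPKM in controls, a difference of 5.65 ± 0.25 (adjusted p = 7.67e-10). Among all 17492 genes ordered by their log2 difference, hsp-16.41 held rank 1 and hsp-16.2 rank 2 in this comparison. The gene hsp-16.1 had 531, 518 and 479 FPKM in 10 µM bortezomib, against 14.6, 18.4 and 22 FPKM in controls, and held rank 5 with a difference of 4.74 ± 0.22 (adjusted p = 1.28e-09). Its copy hsp-16.11 had 675, 675 and 609.7 FPKM in 10 µM bortezomib, against 21.4, 28.5 and 34.7 FPKM in controls, and held rank 8 with a difference of 4.51 ± 0.21 (adjusted p = 1.28e-09). The gene hsp-16.48 had 577, 542 and 511 FPKM in 10 µM bortezomib, and hsp-16.49 had 584, 544 and 511 FPKM. They held ranks 11 and 10, with differences from controls of 4.43 ± 0.24 and 4.44 ± 0.25 (adjusted p = 6.89e-09 for both). In the 25 µM comparison the same genes held ranks from 59 (hsp-16.41) to 210 (hsp-16.11), and after rpn-6 RNAi ranks from 26 (hsp-16.41) to 119 (hsp-16.11).

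**Figure D2:**
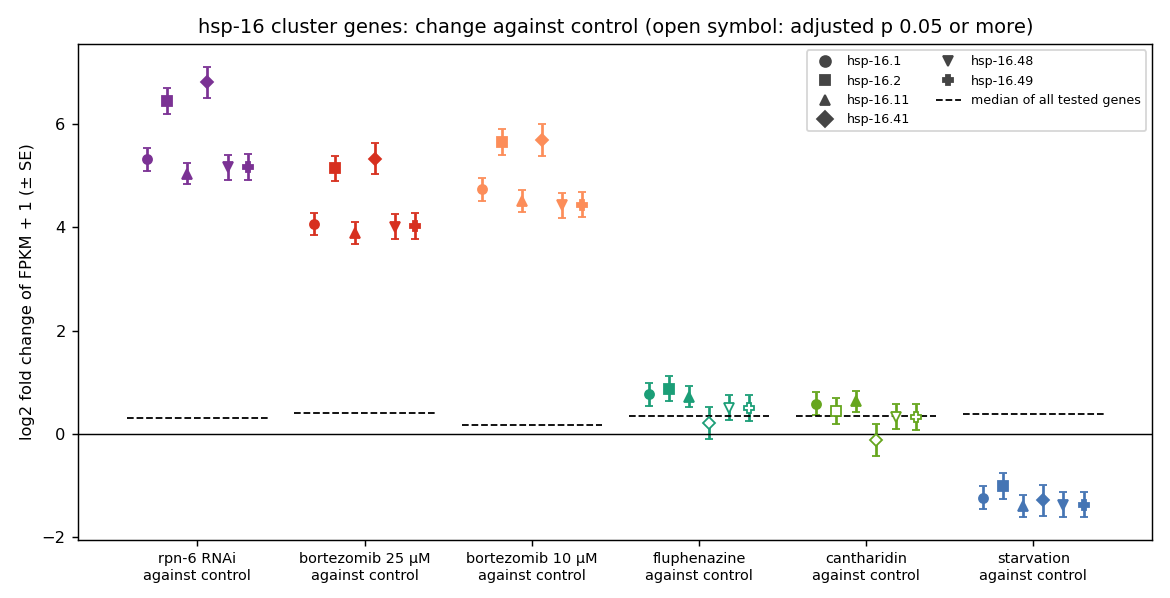
Log2 fold change of FPKM + 1 (± SE from the limma fit, n = 3 per group) of the 6 hsp-16 genes in each treatment against control, with a dashed line for the median of all tested genes. Filled symbols passed an adjusted p of 0.05; all 6 are high after rpn-6 RNAi and both bortezomib doses, near the dashed line in fluphenazine and cantharidin, and below 0 in starvation.

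All 6 hsp-16 genes had lower levels at the higher bortezomib dose than at the lower one, and 2 of them passed the test. In 25 µM against 10 µM bortezomib, hsp-16.1 fell by 0.67 on the log2 scale (SE 0.22, limma adjusted p = 0.0245) and hsp-16.11 fell by 0.61 (SE 0.21, adjusted p = 0.032), to 62.5% and 65.4% of the 10 µM means. These near-identical copies were the only members called lower at 25 µM, so the 2 calls are not separate results. Of all tested genes, 12.4% were called lower and 27.2% higher in that contrast. The other 4 differed by -0.51 for hsp-16.2 (adjusted p = 0.114), -0.37 for hsp-16.41 (adjusted p = 0.342), -0.42 for hsp-16.48 (adjusted p = 0.178) and -0.41 for hsp-16.49 (adjusted p = 0.183). For each of the 6 genes all 25 µM libraries lay below all 10 µM libraries, while the median of all tested genes was 0.27 higher at 25 µM. The share of all tested genes with such a gap was not counted, so the gap does not add to the 2 calls. The doses share no replicate number, with 3, 4 and 6 at 25 µM and 7, 8 and 9 at 10 µM. What the numbers mark is not stated, so dose cannot be told apart from a difference between these series. A fit with the numbers as a block called 0 members lower. The count of members called varied with the fit: it was 6 with array weights or with only the libraries of both doses in the fit, and 0 without any one of 10 µM library 7 or 8 or 25 µM library 3, 4 or 6, and 1 without 10 µM library 9. The groups also differed in markers of other tissues, whose part in the result was not tested. The 6 intestine markers summed to 784 to 1119.9 FPKM at 25 µM, against 2776 to 3180 FPKM at 10 µM. Of these 6, 1 was called higher and 2 lower at 25 µM. Of 10 cuticle collagens, 7 were called higher at 25 µM.

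Levels after rpn-6 RNAi exceeded those of both bortezomib groups. Against 25 µM bortezomib all 6 genes were higher after RNAi, by 1.15 to 1.48 on the log2 scale (limma adjusted p = 0.00104 to 0.0043), with 8.01% of all genes called higher. The means after RNAi were 2.22 times (hsp-16.11) to 2.78 times (hsp-16.41) those of the 25 µM group. Against 10 µM bortezomib, hsp-16.2 (0.80, adjusted p = 0.0274), hsp-16.41 (1.11, adjusted p = 0.0139), hsp-16.48 (0.73, adjusted p = 0.0385) and hsp-16.49 (0.73, adjusted p = 0.0383) were called higher after RNAi, with 17.4% of all genes called higher. The genes hsp-16.1 (0.58, adjusted p = 0.0694) and hsp-16.11 (0.53, adjusted p = 0.0823) were not called, although their ranges did not overlap. Neither comparison of RNAi with bortezomib was refitted with other scalings or with libraries left out. RNAi began at L3 and the drug at L4, so the groups differ in duration and route as well as in the agent.

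In fluphenazine 3 of the 6 genes rose by small amounts against controls, where 34.4% of all genes were called higher and 9.39% lower. The gene hsp-16.2 had 10.8, 5.21 and 5.97 FPKM in fluphenazine, against 3.82, 3.27 and 3.05 FPKM in controls, a log2 difference of 0.87 ± 0.25 (limma adjusted p = 0.0113). The gene hsp-16.1 had 41.7, 23.4 and 31.3 FPKM in fluphenazine, against 14.6, 18.4 and 22 FPKM in controls, a difference of 0.76 ± 0.22 (adjusted p = 0.0124). Its copy hsp-16.11 had 57.5, 37.7 and 45.6 FPKM in fluphenazine, against 21.4, 28.5 and 34.7 FPKM in controls, a difference of 0.72 ± 0.21 (adjusted p = 0.0134). In these 3 genes the lowest fluphenazine library lay above the highest control, and fluphenazine 2 was the highest. The genes hsp-16.48 and hsp-16.49, both listed at 45.1, 31.7 and 28.9 FPKM in fluphenazine, differed from controls by 0.50 (adjusted p = 0.104 and 0.106). Their lowest fluphenazine library also lay above the highest control, 28.9 against 26.1 FPKM, without a call. The gene hsp-16.41 had 7.33, 1.65 and 4.25 FPKM in fluphenazine, against 2.83, 2.82 and 4.14 FPKM in controls, and the groups overlapped (0.21, adjusted p = 0.592). The median of all tested genes was 0.34 in this comparison. No member was called higher after median-of-ratios scaling or quantile normalization, or without fluphenazine 2, and quantile normalization called hsp-16.41 lower (-0.76, adjusted p = 0.0339). Without control 4 the count was 1, and it was 6 without control 7, fluphenazine 4 and starvation 3, a choice made after seeing the data.

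In cantharidin only hsp-16.1 and hsp-16.11 of the 6 genes were called higher than in controls, where 31.9% of all genes were called higher and 5.96% lower. The gene hsp-16.11 had 39.1, 38.7 and 53.1 FPKM in cantharidin, against 21.4, 28.5 and 34.7 FPKM in controls, a log2 difference of 0.62 ± 0.21 (limma adjusted p = 0.0304). Its copy hsp-16.1 had 25.7, 24.4 and 33.3 FPKM in cantharidin, against 14.6, 18.4 and 22 FPKM in controls, a difference of 0.58 ± 0.22 (adjusted p = 0.0484). The 2 called genes are near-identical copies, and 2 of 6 is near the share of all genes called higher. Cantharidin 9 was the highest library for all 6 genes, and without it no member was called. The gene hsp-16.2 had 4.57, 3.89 and 6.58 FPKM in cantharidin, a difference of 0.44 from controls (adjusted p = 0.178). The gene hsp-16.41 had 2.63, 2.05 and 4.28 FPKM in cantharidin, a difference of -0.12 (adjusted p = 0.787), with overlapping groups. The genes hsp-16.48 and hsp-16.49 differed by 0.32 each (adjusted p = 0.31 and 0.319). The median of all genes was 0.34 in this comparison, and no member was called higher after median-of-ratios scaling or quantile normalization, or without control 4 or control 6. Between the 2 drugs themselves no member was called, with differences of 0.10 to 0.44 in fluphenazine over cantharidin (adjusted p = 0.42 to 0.878), where 7.74% of all genes were called in either direction. All 6 were higher in 25 µM bortezomib than in fluphenazine, by 3.18 to 5.13, where 13.4% of all genes were called higher.

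Starvation gave the lowest hsp-16 levels of the series, and all 6 genes fell against controls. In this comparison 18.4% of all genes were called lower and 39.1% higher. The gene hsp-16.11 had 6.62, 10.7 and 13.3 FPKM in starved worms, against 21.4, 28.5 and 34.7 FPKM in controls, and fell by 1.40 on the log2 scale (SE 0.21, limma adjusted p = 6.15e-05). The gene hsp-16.1 had 4.51, 9.43 and 8.06 FPKM in starved worms, against 14.6, 18.4 and 22 FPKM in controls, and fell by 1.25 (SE 0.22, adjusted p = 0.00026). Every starved library lay below every control, with starvation 1 lowest. The gene hsp-16.48 had 5.10, 8.84 and 14.2 FPKM in starved worms, against 22, 26.1 and 24.7 FPKM in controls, and fell by 1.38 (SE 0.24, adjusted p = 0.000262). The copy hsp-16.49 was listed at the same FPKM in all 6 libraries and also fell by 1.38 (SE 0.25, adjusted p = 0.000268). The gene hsp-16.2 had 0.447, 1.32 and 2.03 FPKM in starved worms, against 3.82, 3.27 and 3.05 FPKM in controls, and fell by 1.01 (SE 0.25, adjusted p = 0.00317). The gene hsp-16.41 had 0.303, 0.838 and 1.11 FPKM in starved worms, against 2.83, 2.82 and 4.14 FPKM in controls, and fell by 1.30 (SE 0.31, adjusted p = 0.00255). Mean levels were between 23.02% (hsp-16.41) and 40.1% (hsp-16.1) of control means, while the median of all tested genes was 0.38 higher in starvation. Leaving out any one of the 21 libraries kept all 6 calls, with differences from -1.70 to -0.72. Starved libraries also had less of all 10 oocyte and eggshell markers, which were all called lower and summed to 179 to 2888 FPKM, against 4278 to 6264 FPKM in controls; the part of this in the hsp-16 levels was not tested. All 6 genes were higher in cantharidin than in starvation, by 1.18 to 2.02, where 14.3% of all genes were called higher.

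Group means of the ratios between members differed between treatments, without a test that 3 against 3 libraries could pass. The p-values of the ratios are not adjusted for the number of ratios tested. In controls hsp-16.2 and hsp-16.41 averaged 3.38 and 3.26 FPKM, where single fragments weigh more. The sum of hsp-16.1 and hsp-16.11 was 4.51 ± 0.43 times the level of hsp-16.2 after rpn-6 RNAi, 4.88 ± 0.56 times in 25 µM bortezomib and 5.32 ± 0.31 times in 10 µM bortezomib. It was 11.3 ± 1.90 times in fluphenazine, 14.5 ± 1.57 times in cantharidin and 16.9 ± 7.33 times in starvation, against 14.1 ± 4.59 times in controls (SD, n = 3 each). All libraries of the first 3 groups lay below all controls, and the exact two-sided permutation test over libraries gave p = 0.1 for each, the smallest it can give with 3 against 3. The sum of hsp-16.48 and hsp-16.49 was 3.83 ± 0.27 times hsp-16.41 after rpn-6 RNAi, 4.85 ± 0.73 times in 25 µM and 4.98 ± 0.15 times in 10 µM bortezomib, against 15.3 ± 3.29 times in controls (exact permutation p = 0.1 for each). In starvation that ratio was 26.8 ± 6.38, above all controls (exact permutation p = 0.1), and in fluphenazine it ran from 12.31 to 38.6, with fluphenazine 4 the highest. In every RNAi and bortezomib library, hsp-16.2 and hsp-16.41 therefore stood higher relative to the duplicated copies than in any control.

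Within the pair of hsp-16.2 and hsp-16.41, hsp-16.41 was 1.25 ± 0.043 times hsp-16.2 after rpn-6 RNAi, 1.10 ± 0.059 times in 25 µM bortezomib and 1.00 ± 0.0081 times in 10 µM bortezomib. It was 0.569 ± 0.22 times in fluphenazine, 0.585 ± 0.062 times in cantharidin and 0.621 ± 0.067 times in starvation, against 0.986 ± 0.33 times in controls. The rpn-6 RNAi, 25 µM and 10 µM bortezomib libraries lay within the control range of 0.740 to 1.36 (exact permutation p = 0.4, 0.5 and 0.8). The fluphenazine, cantharidin and starvation libraries lay below all controls (exact permutation p = 0.1 for each), at levels of a few FPKM where single fragments weigh more. Among the copies, hsp-16.11 was listed at 1.24 ± 0.021 times hsp-16.1 after rpn-6 RNAi, 1.34 ± 0.040 times in 25 µM and 1.28 ± 0.017 times in 10 µM bortezomib, against 1.53 ± 0.057 times in controls (exact permutation p = 0.1 for each), within the limit on splitting near-identical copies. The sum of hsp-16.48 and hsp-16.49 over that of hsp-16.1 and hsp-16.11 stayed between 0.863 (cantharidin) and 1.09 (25 µM bortezomib) in the group means, with 1.07 ± 0.18 in controls. Single libraries ran from 0.752 (fluphenazine 9) to 1.33 (starvation 3), and every treatment overlapped the controls in that ratio.

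**Figure D3:**
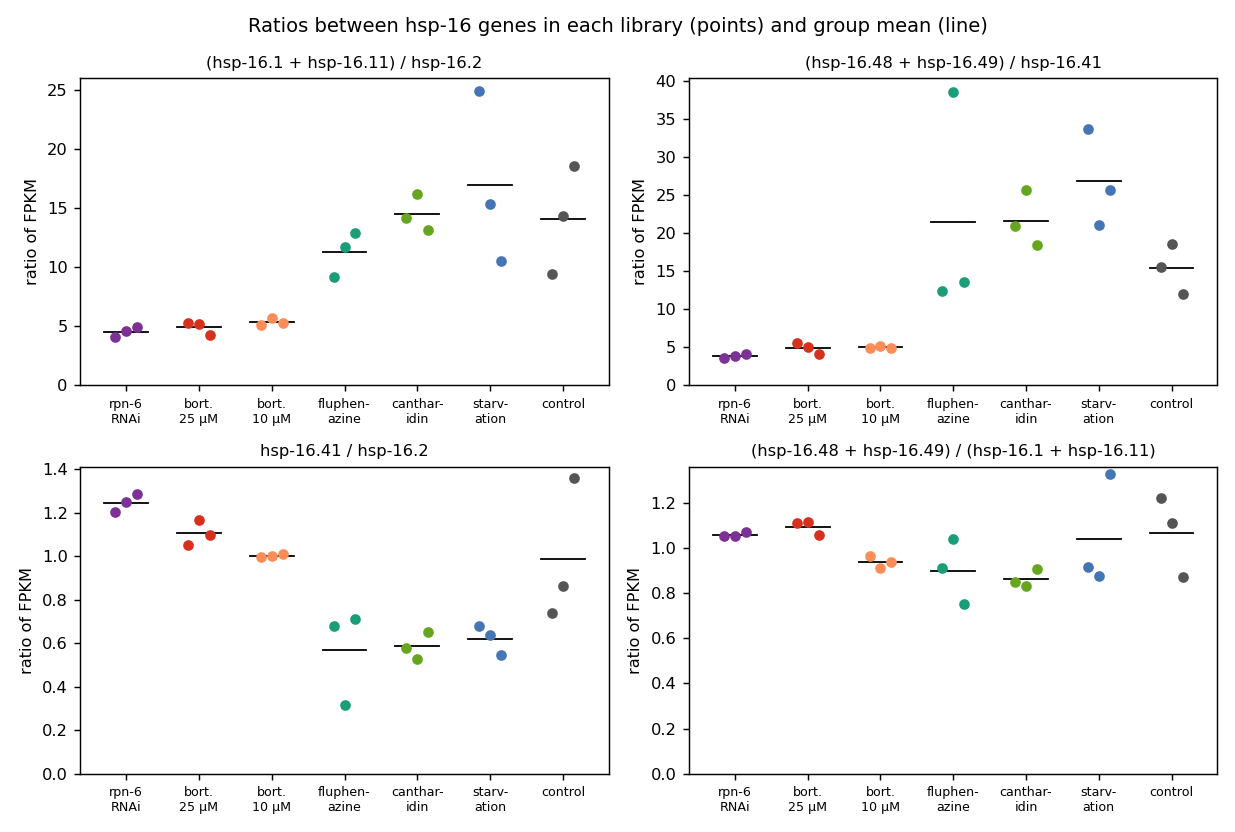
Ratios of FPKM between hsp-16 genes in each library (points) with the group mean (line), in 4 panels with linear axes from 0. The 2 upper panels, which set the duplicated copies against hsp-16.2 and hsp-16.41, are low after rpn-6 RNAi and in both bortezomib groups (means 3.83 to 5.32) and higher in the other 4 groups (means 11.3 to 26.8).

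Of the 12 small heat shock genes outside the cluster, 7 were called higher than in controls after rpn-6 RNAi, 4 in 25 µM bortezomib and 3 in 10 µM bortezomib, and none was called lower. Of all genes, 27.9%, 42.3% and 9.61% were called higher in these comparisons. In fluphenazine 5 were called higher, and in cantharidin and in starvation 4 each, with none lower, beside 34.4%, 31.9% and 39.1% of all genes. The shares of the 12 were thus near or below the background in 25 µM bortezomib, cantharidin and starvation. After rpn-6 RNAi and in 25 µM and 10 µM bortezomib the median log2 difference was 5.25, 4.05 and 4.63 for the hsp-16 genes and 0.79, 0.62 and 0.38 for these 12, beside 0.31, 0.40 and 0.16 for all genes. With median-of-ratios scaling 5, 3 and 2 of the 12 were called higher and 1, 2 and 2 lower in these 3 groups. In fluphenazine, cantharidin and starvation 3, 3 and 2 were called lower with it. Over the treatments against control, 68% to 84.3% of all genes' calls were higher as deposited, and 38.2% to 53.2% with that scaling. The gene hsp-17 changed most like the cluster. It had 548, 537 and 621 FPKM after rpn-6 RNAi, 152, 173 and 239 FPKM in 25 µM bortezomib and 163, 161 and 163 FPKM in 10 µM bortezomib, against 27.3, 30.9 and 56.6 FPKM in controls. Its log2 differences were 3.93, 2.31 and 2.13 (limma adjusted p = 5.21e-08, 2.11e-05 and 0.000369), and it differed by 0.18 between 25 µM and 10 µM (adjusted p = 0.655). In fluphenazine and cantharidin hsp-17 rose by 1.48 and 1.53 (adjusted p = 0.00189 and 0.00159), and these calls held under both other scalings, whereas in starvation it differed by -0.34 (adjusted p = 0.377, and called lower at -0.53 without control 7, fluphenazine 4 and starvation 3). The gene hsp-43 rose after rpn-6 RNAi (2.03), in 25 µM bortezomib (1.52), in 10 µM bortezomib (1.10) and in cantharidin (1.77), and not in fluphenazine (-0.22, adjusted p = 0.447). In cantharidin hsp-43 had 374, 355 and 301 FPKM, against 91.9, 88.5 and 122 FPKM in controls, where the differences of the hsp-16 genes ran from -0.12 to 0.62.

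The remaining small heat shock genes did not follow the cluster. The gene hsp-12.3 rose by 0.88 after rpn-6 RNAi, 0.69 in 25 µM bortezomib, 0.83 in 10 µM bortezomib and 0.58 in starvation, but none of these was called under median-of-ratios scaling, and those of 25 µM bortezomib and starvation turned to -0.31 and -0.21 with quantile normalization. The gene hsp-25 was called higher after rpn-6 RNAi (0.79, adjusted p = 0.000377), and not in either bortezomib group (0.22 and -0.17, adjusted p = 0.207 and 0.499). F08H9.3 and F08H9.4 rose after rpn-6 RNAi (2.37 and 2.95, adjusted p = 0.000885 and 0.00131) from levels under 1 FPKM in controls, where F08H9.4 was listed at 0 in 2 libraries. F08H9.4 rose further in fluphenazine (3.38, adjusted p = 0.000559), where fluphenazine 2 alone reached 50.7 FPKM beside 4.59 and 4.96 FPKM. F08H9.3 was also called higher in fluphenazine (1.46), cantharidin (2.36) and starvation (1.65). In starvation 1 library reached 10.6 FPKM, beside 1.85 and 1.86 FPKM. Its fluphenazine libraries ran from 0.811 to 5.65 FPKM, against at most 0.784 FPKM in controls. ZK1128.7 was higher in 25 µM than in 10 µM bortezomib (1.42, adjusted p = 0.000993), and it rose in starvation (1.82, adjusted p = 7.54e-05). It also rose after rpn-6 RNAi (0.80), in 25 µM bortezomib (1.37), in fluphenazine (1.60) and in cantharidin (1.08). The gene hsp-12.6 was called higher in fluphenazine alone (1.69, adjusted p = 0.0106), where its libraries ran from 6.55 to 41.9 FPKM. The gene hsp-12.2 was called higher in starvation alone (0.83, adjusted p = 0.000447), and sip-1, hsp-12.1 and Y55F3BR.6 in no treatment.

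**Figure D4:**
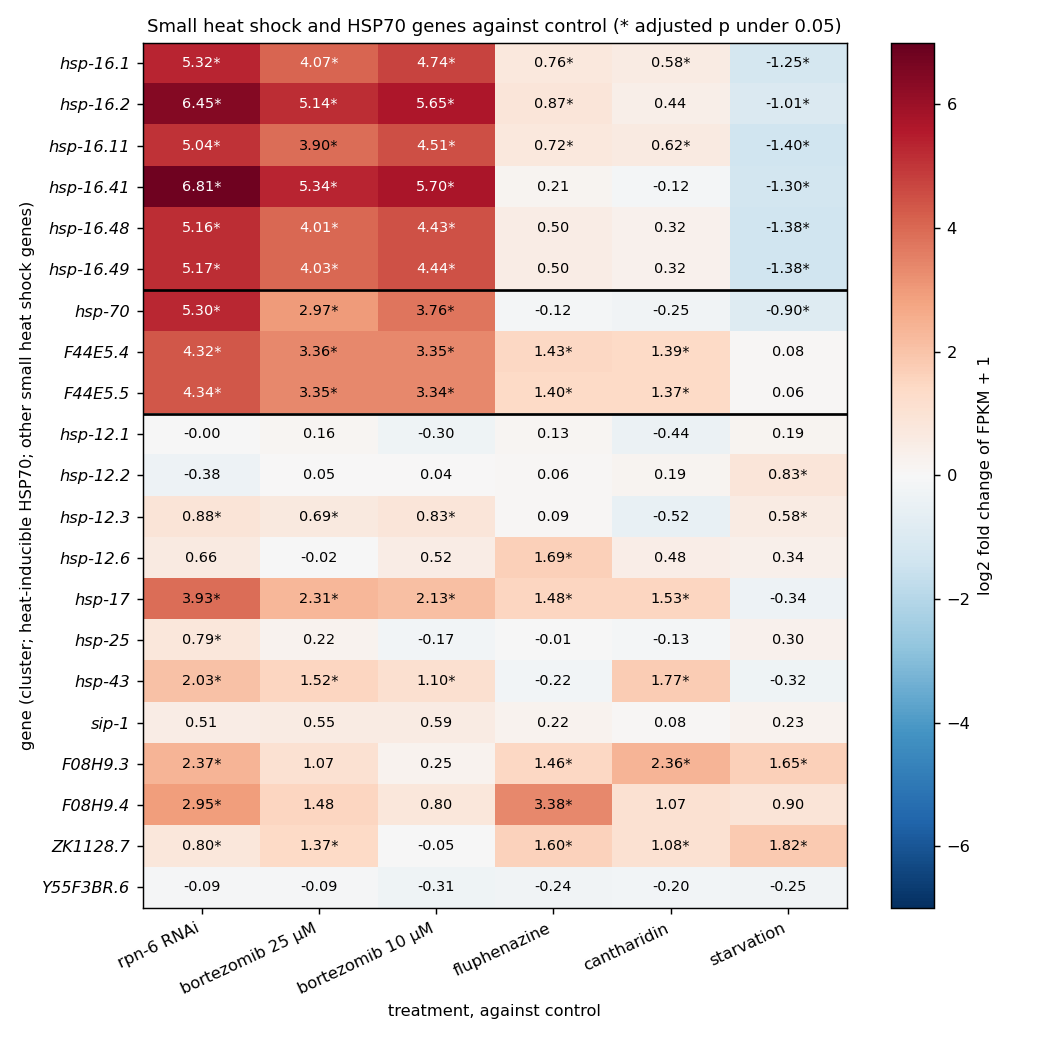
Log2 fold change of FPKM + 1 against control for the 6 hsp-16 genes, 3 heat-inducible HSP70 genes and 12 other small heat shock genes (rows) in the 6 treatments (columns), with the value in each cell and a star at an adjusted p under 0.05. The hsp-16 rows and the HSP70 rows are dark red in the 3 left columns (2.97 to 6.81), and hsp-17 is the nearest of the other small heat shock genes (2.13 to 3.93).

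The heat-inducible HSP70 genes, whose products refold the proteins that small heat shock proteins hold, rose together with the cluster after rpn-6 RNAi and in bortezomib. All 3 were called higher after rpn-6 RNAi and in both bortezomib groups. The gene hsp-70 had 155, 149 and 190.2 FPKM after rpn-6 RNAi, 27.6, 33.5 and 34.3 FPKM in 25 µM bortezomib and 60.2, 52.0 and 54.9 FPKM in 10 µM bortezomib, against 1.44, 3.58 and 5.50 FPKM in controls. Its log2 differences were 5.30 ± 0.35, 2.97 ± 0.35 and 3.76 ± 0.35 (limma adjusted p = 3.21e-09, 3.15e-06 and 2.46e-06). Like the hsp-16 genes, hsp-70 was lower in all 25 µM than in all 10 µM libraries (-0.79, adjusted p = 0.0783), without a call, and it fell in starvation (-0.90, adjusted p = 0.0366); the starvation call was lost without control 7, fluphenazine 4 and starvation 3 (-0.61, adjusted p = 0.0539). In fluphenazine and cantharidin hsp-70 differed by -0.12 and -0.25 (adjusted p = 0.791 and 0.59). Quantile normalization called it lower in both (-1.07 and -1.20), and leaving out the same 3 libraries called it higher in fluphenazine (0.65, adjusted p = 0.0386). The neighbours F44E5.4 and F44E5.5 were listed at nearly equal FPKM in every group, so their separate levels are uncertain. F44E5.4 rose by 4.32 after rpn-6 RNAi, 3.36 in 25 µM bortezomib and 3.35 in 10 µM bortezomib (adjusted p = 5e-08, 9.95e-07 and 9.56e-06). It also rose in fluphenazine (1.43, adjusted p = 0.00468) and cantharidin (1.39, adjusted p = 0.00585), and was not called in starvation (0.08, adjusted p = 0.861). The cantharidin call of F44E5.4 was lost with quantile normalization (0.81, adjusted p = 0.082).

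Constitutive HSP70 and HSP90 genes with their co-chaperones moved far less. Of 13 tested, 8 were called higher and 0 lower after rpn-6 RNAi, 2 higher and 5 lower in 25 µM bortezomib, and 2 higher and 0 lower in 10 µM bortezomib, beside 27.9%, 42.3% and 9.61% of all genes called higher. Their medians in these comparisons were 0.30, -0.14 and 0.13, close to or below the medians of all genes, and with median-of-ratios scaling 1 was called higher and 2 lower after rpn-6 RNAi. Among the members called after RNAi, the 4 with the largest differences were unc-23, a BAG-family co-chaperone (1.27, limma adjusted p = 0.00166), cdc-37, a kinase co-chaperone (0.73, adjusted p = 0.00118), sti-1, which bridges HSP70 and HSP90 (0.55, adjusted p = 0.0036), and bag-1 (0.54, adjusted p = 0.00395). With median-of-ratios scaling unc-23 alone of these 4 was called after RNAi. The gene hsp-110 was listed at 0 in rpn-6 RNAi 6 and cantharidin 9, beside 313 and 326 FPKM in the other RNAi libraries and 253 to 265 FPKM in controls, and it was not called (-2.47 ± 1.86 after RNAi, adjusted p = 0.344). In 25 µM bortezomib unc-23 and cdc-37 rose (0.80 and 0.54, neither called with median-of-ratios scaling), while sti-1 and bag-1 differed by -0.11 and -0.14 without a call. In fluphenazine 5 of the 13 were called lower and 0 higher, in cantharidin 3 lower and 1 higher, and in starvation 8 lower and 0 higher, beside 9.39%, 5.96% and 18.4% of all genes called lower. With median-of-ratios scaling 10, 9 and 10 were called lower in these groups, and 8 in 25 µM bortezomib. That scaling also moved the calls of all genes. The share of calls that were higher fell from 78.5% to 46.3% in fluphenazine, 84.3% to 50.2% in cantharidin and 68% to 50.4% in starvation. In 25 µM bortezomib it fell from 79.3% to 53.2%.

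Among chaperones of other compartments, hsp-4, the BiP gene of the endoplasmic reticulum, rose after rpn-6 RNAi (0.91, limma adjusted p = 0.000383) and in 25 µM bortezomib (0.44, adjusted p = 0.0385). The 25 µM call of hsp-4 was lost under both other scalings (0.39 with quantile normalization, adjusted p = 0.0552). Its paralog hsp-3 fell in both (-0.63 and -0.61, adjusted p = 0.0277 and 0.0225). The mitochondrial chaperonin gene hsp-60 fell by 1.02 after rpn-6 RNAi, 1.93 in 25 µM bortezomib and 0.54 in 10 µM bortezomib (adjusted p = 1.43e-05, 1.04e-08 and 0.0161). The mitochondrial HSP70 gene hsp-6 differed by 0.32 after rpn-6 RNAi and by -0.35 in 25 µM bortezomib (adjusted p = 0.0159 and 0.00738), and the rise after RNAi was not called with median-of-ratios scaling (-0.05, adjusted p = 0.834). None of these 4 genes differed by as much as any hsp-16 gene did after RNAi or bortezomib.

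The transcript of hsf-1, which encodes the factor known to drive the cluster, was called in none of the 6 treatments. It had 60.02, 67.4 and 60.4 FPKM after rpn-6 RNAi, 57.1, 53.1 and 54.6 FPKM in 25 µM bortezomib and 73.6, 69.4 and 72.8 FPKM in 10 µM bortezomib, against 55.7, 58.2 and 38.1 FPKM in controls. The differences were 0.32, 0.14 and 0.52 (limma adjusted p = 0.158, 0.508 and 0.0533), and control 7 was the lowest control. Without control 7, fluphenazine 4 and starvation 3, hsf-1 was called higher in 10 µM bortezomib (0.33, adjusted p = 0.00897) and lower in fluphenazine (-0.68) and starvation (-0.58). Median-of-ratios scaling also called it lower in these last 2 (-0.66 and -0.73) and turned the differences after RNAi and at 25 µM to -0.04 and -0.30. Of 7 regulators of heat shock transcription tested, 3 were called higher after rpn-6 RNAi, 2 in 25 µM bortezomib and 3 in 10 µM bortezomib, and none lower, beside 27.9%, 42.3% and 9.61% of all genes called higher. With median-of-ratios scaling 2, 1 and 1 were called higher and 1, 2 and 0 lower. The called genes were pqm-1, a zinc finger factor (1.25, 2.06 and 0.99), daf-16, the FOXO factor (0.66, 0.66 and 0.52), and skn-1, related to mammalian NRF factors (0.73 and 0.52 after RNAi and at 10 µM, and 0.25 without a call at 25 µM). With that scaling pqm-1 was called in all 3 groups, daf-16 after RNAi alone and skn-1 in none. Among all genes, 76%, 79.3% and 74.8% of calls in these 3 groups were higher as deposited. With that scaling the shares were 51.7%, 53.2% and 38.2%. Both pqm-1 and daf-16 also rose in starvation (2.10 and 1.05), where all hsp-16 genes fell. Protein levels and activity of these factors were not measured.

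Over the 21 libraries the 6 members varied together, with Pearson r between 0.986 and 1.00 for log2(FPKM + 1) of any 2 of them. Outside the cluster, the 6 named genes whose levels were most like the mean of the members were hsp-70 (r = 0.972), ZK637.14 (0.966), F57G4.11 (0.961), aip-1 (0.958), gst-16 (0.957) and F44E5.5 (0.956). These correlations describe 21 libraries in 7 groups and follow mainly the gap between the rpn-6 RNAi and bortezomib groups and the rest, so they carry no test. F57G4.11 had differences near those of the cluster (5.87 after rpn-6 RNAi, 5.32 at 25 µM and 4.11 at 10 µM bortezomib) and was higher at 25 µM than at 10 µM (1.22, limma adjusted p = 1.47e-05). The gene aip-1, homologous to a mammalian arsenite-inducible protein, rose by 2.44, 1.21 and 1.52 in the same order. It was called lower at 25 µM than at 10 µM (-0.31, adjusted p = 0.0498) and in starvation (-0.40, adjusted p = 0.0101), as hsp-16.1 and hsp-16.11 were. The glutathione S-transferase gene gst-16 rose by 3.31, 3.21 and 2.48, and ZK637.14 by 2.02, 1.88 and 1.64. For comparison, r with the member mean was 0.873 for hsp-17, 0.730 for hsf-1, 0.694 for hsp-43 and -0.05 for hsp-12.6. Over the 13 constitutive HSP70 and HSP90 genes with co-chaperones, r ran from -0.003 (hsp-110) to 0.878 (dnj-13), which was above hsp-17.

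**Figure D5:**
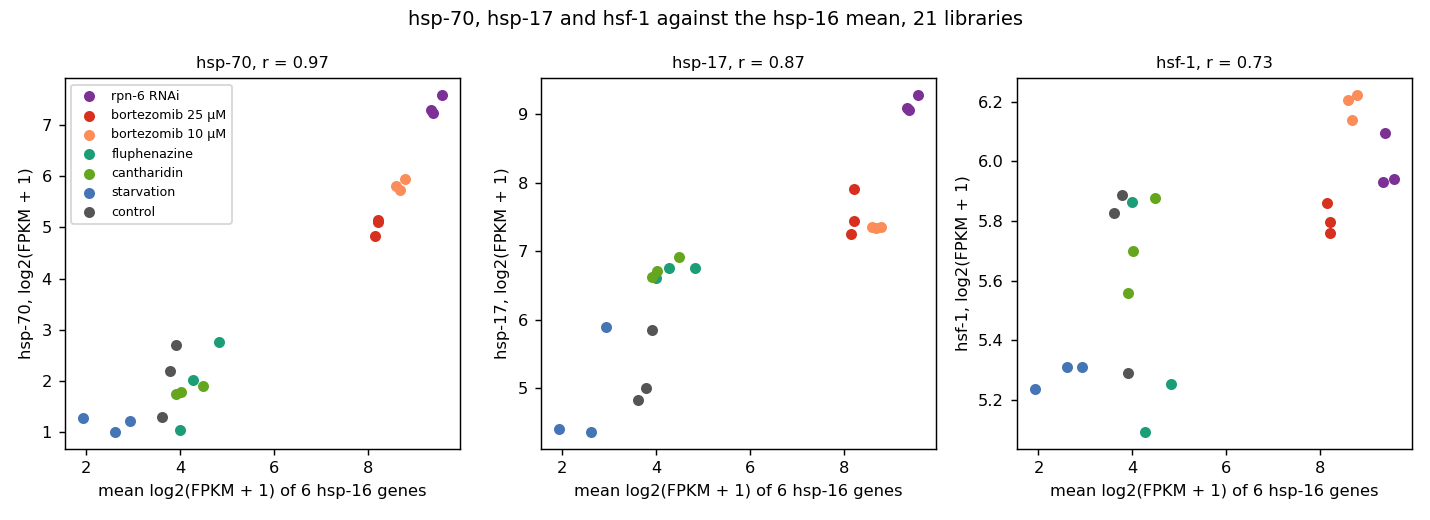
Levels of hsp-70, hsp-17 and hsf-1 against the mean of the 6 hsp-16 genes, all as log2(FPKM + 1), 1 point per library (21 in all) coloured by group. The hsp-70 points follow the hsp-16 mean with the rpn-6 RNAi libraries highest (r = 0.97), hsp-17 lies higher in fluphenazine and cantharidin than in all controls (r = 0.87), and hsf-1 spans a narrow range (r = 0.73).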

How the data were processed

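Per the labels' protocols, RNA of whole worms was extracted with Trizol, cleaned with RNeasy and made into TruSeq stranded mRNA libraries. The authors deposited FPKM values, with a column for each library. Per the submitters' processing notes the tools included CASAVA and Cufflinks; the aligner, genome build, strand setting and read totals are not given in the sources used here. In bortezomib titles the first digit was taken as the replicate and the rest as dose. The 17492 of 46254 genes that reached 1 FPKM in 3 or more libraries were fitted as log2(FPKM + 1) with limma 3.58.1 (R 4.3.3, lmFit, eBayes with trend = TRUE), 1 mean per group, 14 residual degrees of freedom, two-sided, with Benjamini-Hochberg adjustment over all genes within a comparison. The fit was tested on simulated data. Names, chromosome, neighbours and orientation came from RefSeq and Ensembl release 115 tables; no coordinates are printed. Members, lists, tests and alternatives were chosen with earlier results of these data known. Text names all members, all genes of the small heat shock and inducible HSP70 lists, and the 6 genes most like the member mean. Up to 4 of each other list, called in 25 µM bortezomib or rpn-6 RNAi, are named by size of change. The genes hsf-1 and dnj-13 were added after their values were seen. The names daf-21, hsf-2, hsf-3 and ssp-9 matched no single gene ID and were dropped. Alternatives were array weights, quantile normalization, median-of-ratios scaling, other filters and pseudocounts, abundant genes' zeros as missing, summed copies, a replicate block, and leaving out libraries. Tables and figures used Python 3.11.15, matplotlib 3.10.9, scipy 1.17.1, pandas 2.3.3 and numpy 2.4.6.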

Additional observations from a re-analysis of the deposited data

How the results depend on the processing

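In rpn-6 RNAi and in 25 µM and 10 µM bortezomib against controls all 6 hsp-16 genes were called higher under every alternative tested. The same held without any 1 of the 21 libraries. Over all these fits the log2 differences ran from 4.68 to 7.16, 3.47 to 5.68 and 4.15 to 6.05. In starvation all 6 were called lower under every alternative tested but the replicate block, which called 2. The summed copies had no test. Higher calls in fluphenazine (3 of 6) became 6 with array weights and 6 without control 7, fluphenazine 4 and starvation 3, an alternative chosen after seeing the data; they became 0 with median-of-ratios scaling, quantile normalization, only the 2 groups compared or the replicate block, and 0 to 5 when 1 library was left out. Higher calls in cantharidin (2 of 6) became 1 with no filter or a pseudocount of 0.1; they became 0 with median-of-ratios scaling, quantile normalization, only the 2 groups compared or the replicate block, and 0 to 2 when 1 library was left out. Quantile normalization called 1 member, hsp-16.41, lower in fluphenazine and 1, also hsp-16.41, in cantharidin. Lower calls in 25 µM against 10 µM bortezomib (2 of 6) became 6 with array weights or only the 2 groups compared and 0 with the replicate block, and 0 to 2 when 1 library was left out. The cause of these changes was not tested.

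Directions turned round only for members not called in the same comparison, apart from hsp-16.2 in fluphenazine, which was -0.0454 with quantile normalization. In fluphenazine hsp-16.41 was -0.11 with median-of-ratios scaling, -0.76 with quantile normalization, -0.0241 with the replicate block and -0.18 to 0.65 when 1 fluphenazine library was left out (lowest without fluphenazine 2, highest without fluphenazine 4). In cantharidin hsp-16.2 was -0.53 with quantile normalization; hsp-16.48 was -0.0674 after median-of-ratios scaling and -0.0890 after quantile normalization, and its copy hsp-16.49 was -0.0715 and -0.0942 under the same 2 scalings; and hsp-16.41 ran from -0.34 without cantharidin 9 to 0.0541 without cantharidin 3, and was 0.0228 without control 7, alone or together with fluphenazine 4 and starvation 3. In 25 µM against 10 µM bortezomib hsp-16.41 was 0.13 with the replicate block.

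Against controls the median of all tested genes was 0.16 to 0.40 as deposited, -0.05 to 0.12 after median-of-ratios scaling and -0.14 to -0.01 after quantile normalization. The share of calls that were higher ranged from 68.0% to 84.3% as deposited, 38.2% to 53.2% after median-of-ratios scaling and 37.8% to 46.1% after quantile normalization. Same-numbered libraries of different groups had correlations of their deviations between -0.471 (fluphenazine 9 with cantharidin 9) and 0.544 (fluphenazine 4 with control 4). Libraries with different numbers were not set beside them, so these values cannot decide whether the numbers mark pairs. The replicate block treats the numbers as pairs, which was not established. Filtering at 5 FPKM and treating zeros of abundant genes as missing changed no call. The summed copies were not tested, and their differences lay within the residual SD of those of the single copies. Read depth was not given, so no counting error is attached to levels of a few FPKM.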
